A study of Sus scrofa with 23 samples.

Results

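The 8 genes described here are BDNF and NTF3, which encode neurotrophins, NTRK2, NTRK3 and NGFR, which encode neurotrophin receptors, and VGF, NRN1 and GAP43, which are linked to synaptic and axonal plasticity. They were chosen by gene symbol from 25880 rows of Ensembl pig genes. All 8 symbols were found and all 8 passed the filter on low counts, which left 15049 genes. The genes were read in prefrontal cortex of 20 kg adolescent female slaughter pigs of Danish origin, 1 RNA library per animal, each of which had received 1 intravenous injection while awake. The groups were psilocybin 1 week (0.08 mg/kg psilocybin, tissue taken 1 week later, n = 6), saline 1 week (n = 6), psilocybin 1 day (0.08 mg/kg, tissue taken 1 day later, n = 6) and saline 1 day (n = 5). All animals were killed with intravenous pentobarbital, and all groups share the sex and the weight class. The series states 6 animals per group, but the data used here hold 5 saline 1 day libraries, so no sixth saline 1 day animal was analysed. The question is whether a single dose of psilocybin, whose product psilocin activates the serotonin 5-HT2A receptor, changed these transcripts in cortex.

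Neurotrophins are secreted growth factors that are made as longer precursors, cut to mature ligands and bound by Trk receptor tyrosine kinases, whose activation starts the MAP kinase, PI3 kinase and phospholipase C pathways. BDNF is made mainly by excitatory neurons in cortex, is induced by neuronal activity and binds TrkB, the product of NTRK2. NT-3, the product of NTF3, binds TrkC, the product of NTRK3, and NGFR encodes p75, which binds all neurotrophins and their precursors. VGF is a secretory granule protein that is cut to several peptides and is itself induced by BDNF and by activity. The label of secreted genes covers only some of the set, since neuritin, the product of NRN1, is mostly held at the cell surface by a lipid anchor, and GAP43 is a growth cone protein attached to the inner face of the membrane. NTRK2 and NTRK3 give full-length receptors and truncated forms without the kinase, NTRK2's truncated form being abundant in astrocytes. Counts per gene add these forms together.

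In the annotation used for counting, on build susScr11, BDNF (ENSSSCG00000013333) spans positions 32623268 to 32679129 on the plus strand of chromosome 2. NTF3 (ENSSSCG00000033544) lies on the minus strand of chromosome 5, from 65049262 to 65121808. NTRK2 (ENSSSCG00000010959) spans 30032176 to 30429882 on the minus strand of chromosome 10, and its span overlaps 1 other gene, whose exons do not touch those of NTRK2. NTRK3 (ENSSSCG00000005106) spans 191535889 to 191926804 on the plus strand of chromosome 1. NGFR (ENSSSCG00000017548) lies on the plus strand of chromosome 12, from 25699417 to 25720445. VGF (ENSSSCG00000039053) is the most compact of the 8, from 8889022 to 8890874 on the minus strand of chromosome 3. NRN1 (ENSSSCG00000026211) spans 3681831 to 3691969 on the minus strand of chromosome 7, and GAP43 (ENSSSCG00000031244) spans 144361490 to 144457938 on the minus strand of chromosome 13. Exons of GAP43 overlap those of ENSSSCG00000024302, a gene without a symbol on the opposite strand. Counting ignored the strand, so reads from these 2 genes cannot be told apart where they overlap.

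Reads assigned to genes ranged from 9504421 to 13567768 per library in the psilocybin 1 week group, from 10570456 to 16212439 in the saline 1 week group, from 9975409 to 18654626 in the psilocybin 1 day group and from 11453787 to 17206665 in the saline 1 day group. Markers of cortical neurons and glia were present in every library, with SLC17A7, the vesicular glutamate transporter of cortical excitatory neurons, at 937 to 1495 CPM (counts scaled to a common library size after TMM adjustment). Of 7 striatal markers, PPP1R1B at 27.6 to 50.4 CPM, DRD1 at 10.8 to 28.4 CPM and RGS9 at 5.13 to 8.55 CPM were present in every library, and ISL1 had no count in any. The labels name 2 batches without saying of what, and each group of 6 had 3 animals in each, with 3 of the saline 1 day animals in batch 2 and 2 in batch 1. In all, 3 libraries stood apart on the first principal component of all tested genes after removal of the batch, which held 21.27% of the variance. Saline 1 day animal 5 scored 39.8, saline 1 week animal 1 scored 38.03 and psilocybin 1 week animal 6 scored 28.09. The next library on that side, psilocybin 1 day animal 1, scored 20.41. At the other end of the component the lowest library, psilocybin 1 week animal 3, scored -21.24. Several results below are also given without the 3 libraries that stood apart.

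Per kilobase of exon, the 8 genes spread over nearly the whole range of the tissue's transcripts. VGF averaged 161 FPKM (the CPM divided by the exonic length in kilobases) over the 23 animals and stood at the 98.35th percentile of tested genes, and GAP43 averaged 107 FPKM. NRN1 and NTRK2 were next, at 69.4 and 64.3 FPKM. The receptor NTRK3 averaged 6.16 FPKM and its family's best known ligand BDNF 5.14 FPKM, at the 51.66th and 46.73rd percentile of tested genes. NTF3 at 0.718 FPKM and NGFR at 0.335 FPKM were at the low end, with 15 to 65 and 7 to 35 reads per library, so single animals are imprecise for these genes.

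**Figure D1:**
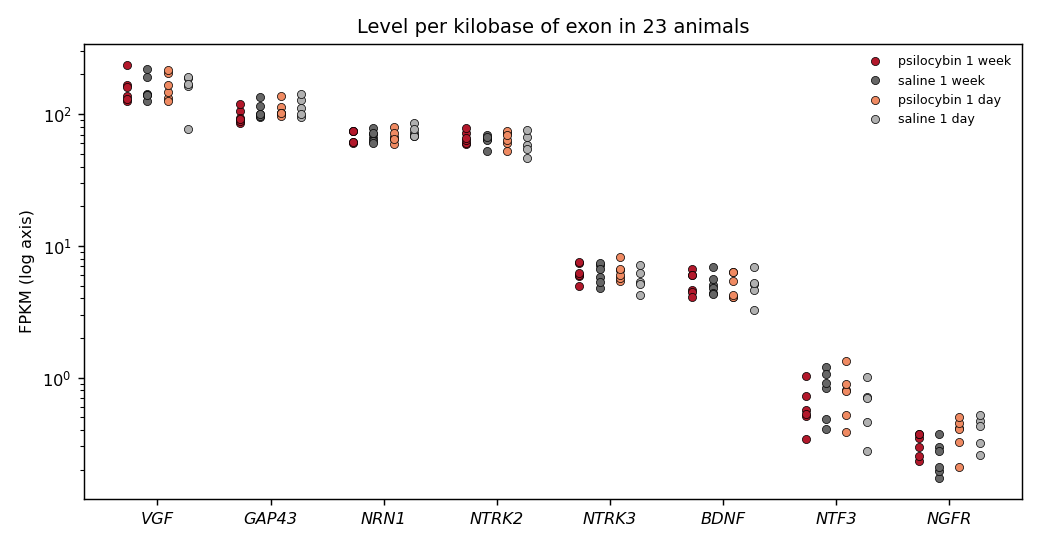
Level of each gene in FPKM (log axis) in each of the 23 animals (points), by group in the order psilocybin 1 week, saline 1 week, psilocybin 1 day and saline 1 day. VGF and GAP43 averaged 161 and 107 FPKM, and NTF3 and NGFR 0.718 and 0.335 FPKM.

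Most neighbours in the order of levels, but not all, kept their order in 20 or more of 23 animals. VGF exceeded GAP43 in 22 of 23 animals, the exception being saline 1 day animal 5, and GAP43 exceeded NRN1 in 23 of 23. NRN1 and NTRK2 did not differ beyond their spread, since NRN1 was the higher in 14 of 23 animals. NTRK2 exceeded NTRK3 in all 23 animals, with a median ratio of 10.2. NTRK3 exceeded BDNF in 17 of 23 animals, BDNF exceeded NTF3 in 23 of 23, and NTF3 exceeded NGFR in 20 of 23. NRN1 was the steadiest of the 8, with a coefficient of variation of 10.4% over the animals, against 23.5% for VGF and 40.0% for the sparsely counted NTF3.

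Among the ligands, BDNF had similar levels in all groups. It was 10.9 CPM in the lowest, 14.2 CPM at the median and 17.7 CPM in the highest psilocybin 1 week animal, against 11.5, 13.1 and 18.4 CPM in saline 1 week animals. In psilocybin 1 day animals it ran from 10.8 CPM through a median of 12.8 CPM to 16.8 CPM, against 18.5, 13.7, 12.4, 13.9 and 8.70 CPM in the 5 saline 1 day animals. The ranges overlapped at both times, and at 1 day both the highest and the lowest animal were saline animals. By edgeR's quasi-likelihood test the log2 fold change of BDNF for psilocybin over saline was 0.04 at 1 week (95% interval -0.31 to 0.39) and 0.01 at 1 day (-0.36 to 0.37), each with an adjusted p of 1. As these are bulk samples, fewer cells of a type and less RNA per cell cannot be told apart for any of the 8 genes.

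NTF3 was the most variable member in every group. It had 1.52 CPM in the lowest, 2.46 CPM at the median and 4.58 CPM in the highest psilocybin 1 week animal, against 1.82, 3.91 and 5.39 CPM in saline 1 week animals. At 1 day the psilocybin animals ran from 1.73 CPM through a median of 3.57 CPM to 5.99 CPM, and the saline 1 day animals had 4.55, 1.25, 2.07, 3.19 and 3.11 CPM. The groups overlapped at both times, and the highest of all 23 animals was a psilocybin 1 day animal and the lowest a saline 1 day animal. The log2 fold change for psilocybin over saline was -0.41 at 1 week (-1.08 to 0.27) and 0.29 at 1 day (-0.42 to 0.99), with adjusted p of 1 by edgeR. The 1 day value was 0.55 without saline 1 day animal 1 and 0.072 without saline 1 day animal 2. Without the 3 libraries that stood apart the 1 week value was -0.77, with an unadjusted p of 0.0293 and an adjusted p of 1.

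Of the Trk receptors, NTRK2 was the most abundant member in CPM and showed no separation of groups. It had 622 CPM in the lowest, 673 CPM at the median and 821 CPM in the highest psilocybin 1 week animal, against 549, 678 and 720 CPM in saline 1 week animals. At 1 day psilocybin animals had 543 CPM at the lowest, 690 CPM at the median and 775 CPM at the highest, against 703, 485, 791, 612 and 564 CPM in saline 1 day animals. The lowest and the highest animal at 1 day were both saline animals. The log2 fold change for psilocybin over saline was 0.07 at 1 week (-0.16 to 0.29) and 0.11 at 1 day (-0.13 to 0.34), each with an adjusted p of 1 by edgeR.

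NTRK3 had the smallest unadjusted p of the 8 genes at 1 day and still did not pass. Psilocybin 1 day animals ran from 27.6 CPM through a median of 31.9 CPM to 42.3 CPM, against 27.3, 26.4, 36.4, 31.7 and 21.8 CPM in saline 1 day animals. The highest value was a psilocybin animal and the 3 lowest were saline animals, with overlap between them. The log2 fold change was 0.22 (-0.04 to 0.47, unadjusted p = 0.0926, adjusted p = 1 by edgeR), and the difference of means was 0.27 in batch 2 and 0.16 in batch 1. Without saline 1 day animal 5, which held the lowest value and stood apart on the first component, the log2 fold change was 0.11. At 1 week NTRK3 had 25.3, 31.3 and 38.6 CPM at the lowest, median and highest psilocybin animal, against 24.4, 32.0 and 38.2 CPM in saline animals, a log2 fold change of 0.04 (-0.20 to 0.28).

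NGFR showed its largest difference between the times rather than between the treatments. The 6 psilocybin 1 week animals ran from 0.816 CPM through a median of 1.14 CPM to 1.32 CPM, against 0.608, 0.858 and 1.32 CPM in saline 1 week animals. Psilocybin 1 day animals ran from 0.743 CPM through a median of 1.46 CPM to 1.78 CPM, and the saline 1 day animals had 1.12, 0.915, 1.65, 1.51 and 1.84 CPM. All 4 groups overlapped. Psilocybin over saline gave a log2 fold change of 0.31 at 1 week (-0.22 to 0.83) and -0.01 at 1 day (-0.52 to 0.50), with adjusted p of 1 by edgeR. At 1 day the difference of means was -0.46 in batch 2 and 0.50 in batch 1.

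VGF, which neurons release from dense core granules, had single animals far from their group. Psilocybin 1 week animals had 228 CPM at the lowest, 268 CPM at the median and 428.2 CPM at the highest, against 229, 254.8 and 398 CPM in saline 1 week animals. Psilocybin 1 day animals had 227 CPM at the lowest, 283 CPM at the median and 390 CPM at the highest, against 341, 297, 346, 304 and 140 CPM in saline 1 day animals. The 140 CPM value came from saline 1 day animal 5, 1 of the libraries that stood apart, and the other 4 lay inside the psilocybin range. The log2 fold change for psilocybin over saline was -0.01 at 1 week (-0.42 to 0.41) and 0.06 at 1 day (-0.37 to 0.49), with adjusted p of 1 by edgeR. The batches lay on opposite sides of 0 at each time, with a difference of means of -0.35 in batch 2 and 0.33 in batch 1 at 1 week, and of 0.28 in batch 2 and -0.16 in batch 1 at 1 day.

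NRN1, an activity-regulated promoter of neurite growth, gave the narrowest intervals of the 8 genes. It had 177 CPM in the lowest, 199.8 CPM at the median and 220 CPM in the highest psilocybin 1 week animal, against 178, 200.4 and 232 CPM in saline 1 week animals. Psilocybin 1 day animals ran from 175 CPM through a median of 193 CPM to 236 CPM, against 252.4, 210.4, 200.2, 201 and 228 CPM in saline 1 day animals. At 1 day 4 of 6 psilocybin animals were below every saline animal, and the other 2 lay within the saline range. The log2 fold change was -0.01 at 1 week (-0.18 to 0.16) and -0.14 at 1 day (-0.32 to 0.04, unadjusted p = 0.111, adjusted p = 1 by edgeR), with differences of means at 1 day of -0.13 in batch 2 and -0.16 in batch 1.

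GAP43, a phosphoprotein of growing and remodelling axons, stayed abundant in all animals. It had 357 CPM in the lowest, 386 CPM at the median and 494 CPM in the highest psilocybin 1 week animal, against 396, 416.6 and 565 CPM in saline 1 week animals. The 6 psilocybin 1 day animals had 571.7, 471.0, 421.4, 427.4, 401.4 and 426.5 CPM, against 535, 462, 397, 420 and 592 CPM in saline 1 day animals. The highest animals of both 1 week groups and of the saline 1 day group were the libraries that stood apart, and the ranges overlapped. The log2 fold change was -0.13 at 1 week (-0.35 to 0.09) and -0.10 at 1 day (-0.34 to 0.14), with adjusted p of 1 by edgeR. Without the 3 libraries it was -0.15 at 1 week and 0.0050 at 1 day.

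**Figure D2:**
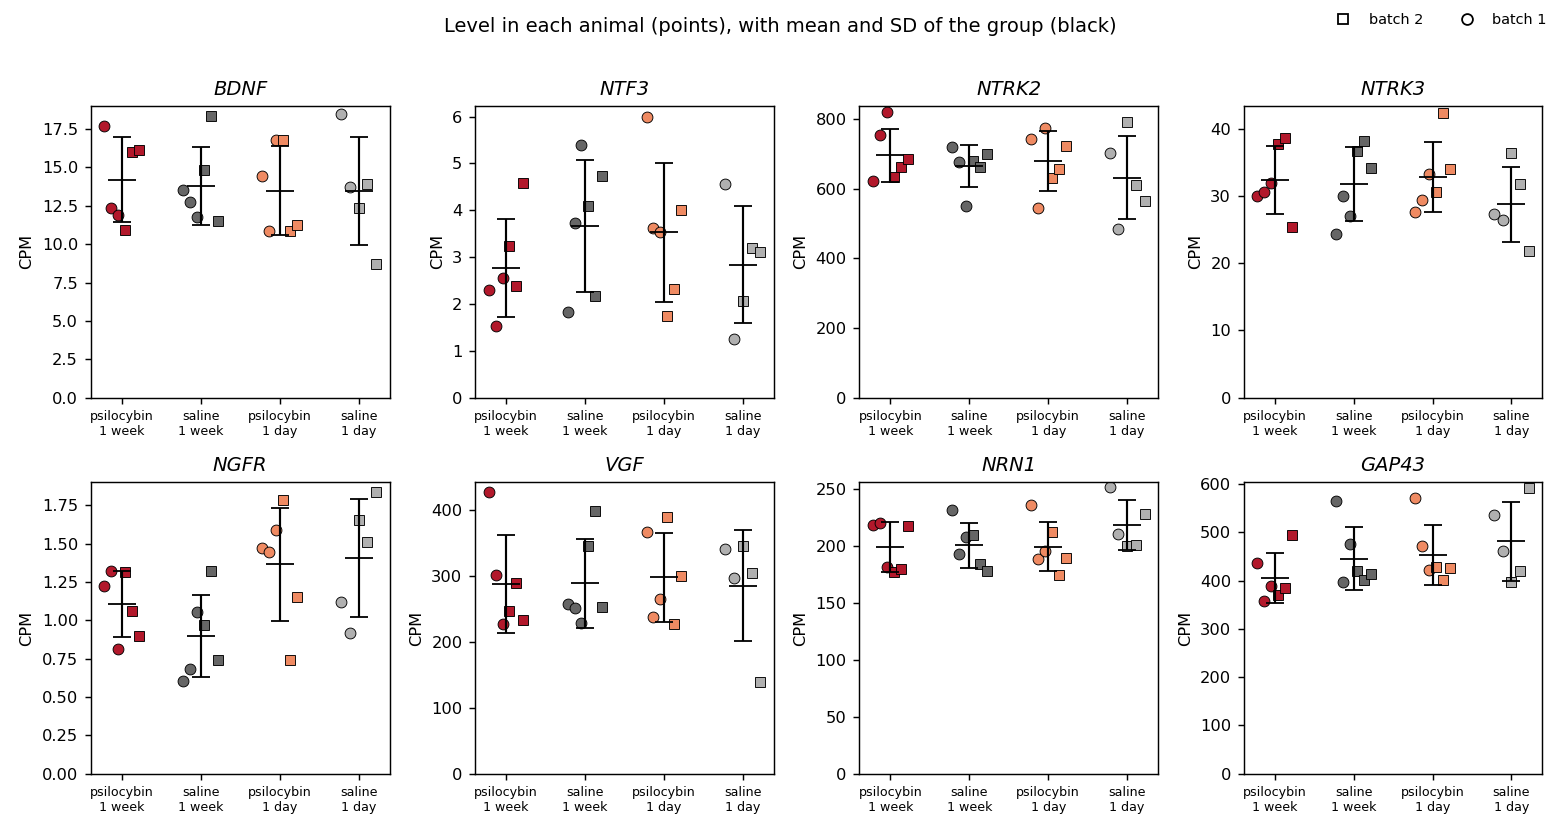
CPM of each gene in each animal (squares batch 2, circles batch 1), with the mean and SD of each group in black. Groups run from psilocybin 1 week through saline 1 week and psilocybin 1 day to saline 1 day, and they overlap for all 8 genes.

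Across the set, no member passed the test for psilocybin against saline at either time. At 1 week 0 of 8 genes were called, against 0% of all 15049 tested genes, and 4 of 8 estimates were positive with a median log2 fold change of 0.02. All tested genes had a median of -0.0032 there, and 48.76% of them were positive. At 1 day 0 of 8 were called, again against 0% of all tested genes, with 5 of 8 positive and a median of 0.04, beside a median of 0.0044 and 51.41% positive over all tested genes. An unadjusted p under 0.05 was reached by 0 of 8 members at both times, against 1.99% of tested genes at 1 week and 2.83% at 1 day, and DESeq2 called no gene at either time. The exact permutation of treatment within batches gave no p below 0.15 for any member at either time. The 16 intervals bound what these groups can hold, since their limits ran from 0.472-fold to 1.99-fold, both for NTF3. For BDNF they ran from 0.807-fold to 1.31-fold at 1 week and from 0.781-fold to 1.297-fold at 1 day.

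**Figure D3:**
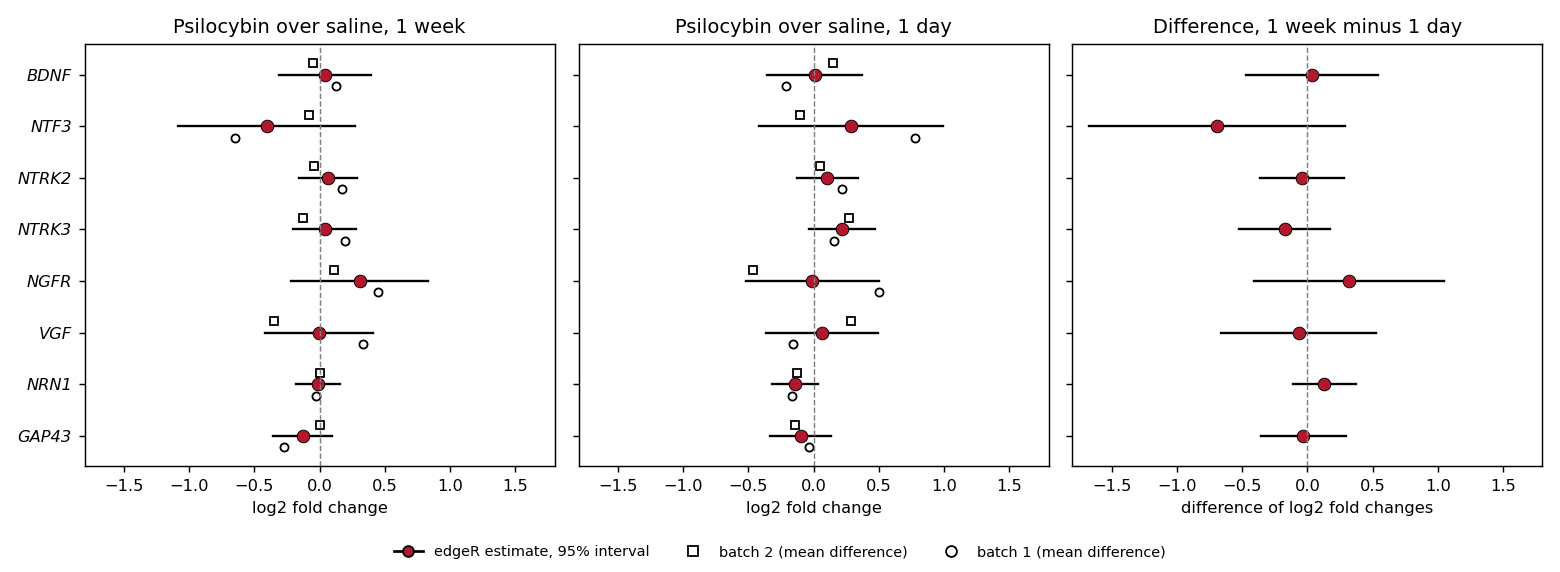
Log2 fold change of each gene for psilocybin over saline at 1 week and at 1 day, and the difference between them, as edgeR's estimate with its 95% interval (filled circle and bar). Only the panels of 1 week and 1 day also hold the differences of mean log2 CPM within batch 2 (open squares) and batch 1 (open circles). All 24 intervals include 0, and the widest belong to NTF3.

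The psilocybin effects at the 2 times could not be told apart for any member. The difference of log2 fold changes, 1 week minus 1 day, was -0.69 for NTF3 (-1.67 to 0.29, unadjusted p = 0.158 and adjusted p = 1 by edgeR), 0.32 for NGFR (-0.41 to 1.04), -0.17 for NTRK3 (-0.52 to 0.18) and 0.13 for NRN1 (-0.11 to 0.37). It lay between -0.07 and 0.03 for BDNF, NTRK2, VGF and GAP43. By edgeR 0 of 8 members were called, against 0% of all tested genes. An unadjusted p under 0.05 was reached by 0 members, against 2.02% of all tested genes. The NTF3 difference was uneven between the batches, at 0.02 in batch 2 and -1.42 in batch 1.

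Between the times, NGFR, with 7 to 35 reads per library, was the only member with an unadjusted p under 0.05 by edgeR, and only within saline. Of all tested genes, 2.01% were under 0.05 within saline and 3.18% within psilocybin. In saline animals NGFR averaged 0.897 ± 0.270 CPM at 1 week and 1.41 ± 0.382 CPM at 1 day (SD, n = 6 and 5), a log2 fold change of -0.63 (-1.15 to -0.11, unadjusted p = 0.0204). The adjusted p was 1 by edgeR, NGFR ranked 104th by p among the tested genes, and the 2 groups overlapped. The highest saline 1 day animal, animal 5 at 1.84 CPM, was a library that stood apart. So was the lowest saline 1 week animal, animal 1 at 0.608 CPM. With single animals left out, the log2 fold change of NGFR within saline ran from -0.76 to -0.53, the latter without saline 1 day animal 5. In psilocybin animals NGFR averaged 1.11 ± 0.217 CPM at 1 week and 1.36 ± 0.368 CPM at 1 day (SD, n = 6 each), a log2 fold change of -0.31 (-0.81 to 0.19). No member was called in either comparison of times by edgeR or DESeq2, against 0% of all tested genes by edgeR in both. NTF3 gave -0.33 (-1.02 to 0.35) within psilocybin and 0.36 (-0.34 to 1.05) within saline, and GAP43 gave -0.16 (-0.38 to 0.07) within psilocybin and -0.13 (-0.36 to 0.11) within saline. Both comparisons share animals with the treatment comparisons, so these values are not separate evidence.

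Batch was the only term of the model under which a member passed the test. NTRK3 averaged 34.0 ± 5.84 CPM in batch 2 (SD, n = 12) and 28.9 ± 2.62 CPM in batch 1 (SD, n = 11), a log2 fold change of 0.24 (0.07 to 0.42, adjusted p = 0.0313 by edgeR). It was higher in batch 2 in 4 of 4 groups, by 0.11 in psilocybin 1 week, 0.43 in saline 1 week, 0.23 in psilocybin 1 day and 0.13 in saline 1 day animals. The 3 animals at or above 38 CPM were all in batch 2, as was the lowest animal at 21.8 CPM. This was 1 of 8 members called, against 32.9% of all tested genes. The adjusted p was 0.00038 without the 3 libraries that stood apart. It missed the threshold when psilocybin 1 week animal 4 or 5, saline 1 week animal 3, 4 or 5, or psilocybin 1 day animal 5 was left out, with log2 fold changes of 0.21 to 0.23 and adjusted p of 0.0508 to 0.0617. NRN1 averaged 196 ± 18.1 CPM in batch 2 and 212 ± 21.9 CPM in batch 1, a log2 fold change of -0.12 (-0.24 to -0.0013, unadjusted p = 0.0479, adjusted p = 0.111). BDNF, NTRK2, NTF3 and VGF had estimates between -0.06 and -0.00076, and NGFR 0.17 and GAP43 -0.11 did not pass.

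Most of the spread of the 8 genes was left over after additive terms for batch and group. That remainder holds the spread between animals of the same group and batch, and also any group difference that changes between the batches. It made up 98.9% of the variance of log2 CPM for VGF, 96.99% for BDNF and 90.8% for NTRK2, against a median of 74.25% over tested genes. The share was 90.6% for NTF3 and lay below that median for 4 of the 8 genes, NGFR at 63.7%, NTRK3 at 66.1%, NRN1 at 68.9% and GAP43 at 73.8%. Group held its largest share for NGFR, at 32.9%, and batch for NTRK3, at 21.0%. The pattern between animals was therefore read after subtracting the mean of each group and batch from every animal, over 23 animals and all 28 pairs of members. A relation was counted as passing where the adjusted permutation p of Pearson's r was under 0.05.

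BDNF and VGF moved together from animal to animal. Their deviations had a Pearson r of 0.762 and a Spearman rho of 0.732 (permutation p = 0.00144 and 0.00342, adjusted p = 0.0118 and 0.0319 over 28 pairs). The relation was 0.792 in batch 2 and 0.706 in batch 1, stayed at 0.768 without the 2 animals farthest out in BDNF, and was 0.775 without the 3 libraries that stood apart, where the adjusted p was 0.109 over 20 animals. Saline 1 day animal 5 was the lowest of its group for both genes, and psilocybin 1 week animal 1 was the highest of its group for both.

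NTRK3, NRN1 and GAP43 formed a second set of linked genes. NTRK3 went against GAP43 with r = -0.823 and rho = -0.809 (permutation p = 0.00033 and 0.00057, adjusted p = 0.00924 and 0.016), and against NRN1 with r = -0.664 and rho = -0.603 (p = 0.00169 and 0.00695, adjusted p = 0.0118 and 0.0486). NRN1 and GAP43 went together with r = 0.730 and rho = 0.680 (p = 0.00145 and 0.00189, adjusted p = 0.0118 and 0.0265). In batch 2 the 3 values were -0.932, -0.806 and 0.747, and in batch 1 they were -0.828, -0.604 and 0.716. Without the 2 animals farthest out they were -0.621, -0.554 and 0.599. In each of the 3 libraries that stood apart GAP43 was the highest and NTRK3 the lowest of its group, and without them the relations were -0.533, -0.488 and 0.597, with adjusted p from 0.109 to 0.259. These relations thus keep their sign without the 3 libraries but do not pass. The other 24 pairs did not pass, among them BDNF with its receptor NTRK2 (r = 0.265, adjusted p = 0.702) and NTRK2 with NTRK3 (r = 0.254, adjusted p = 0.702).

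**Figure D4:**
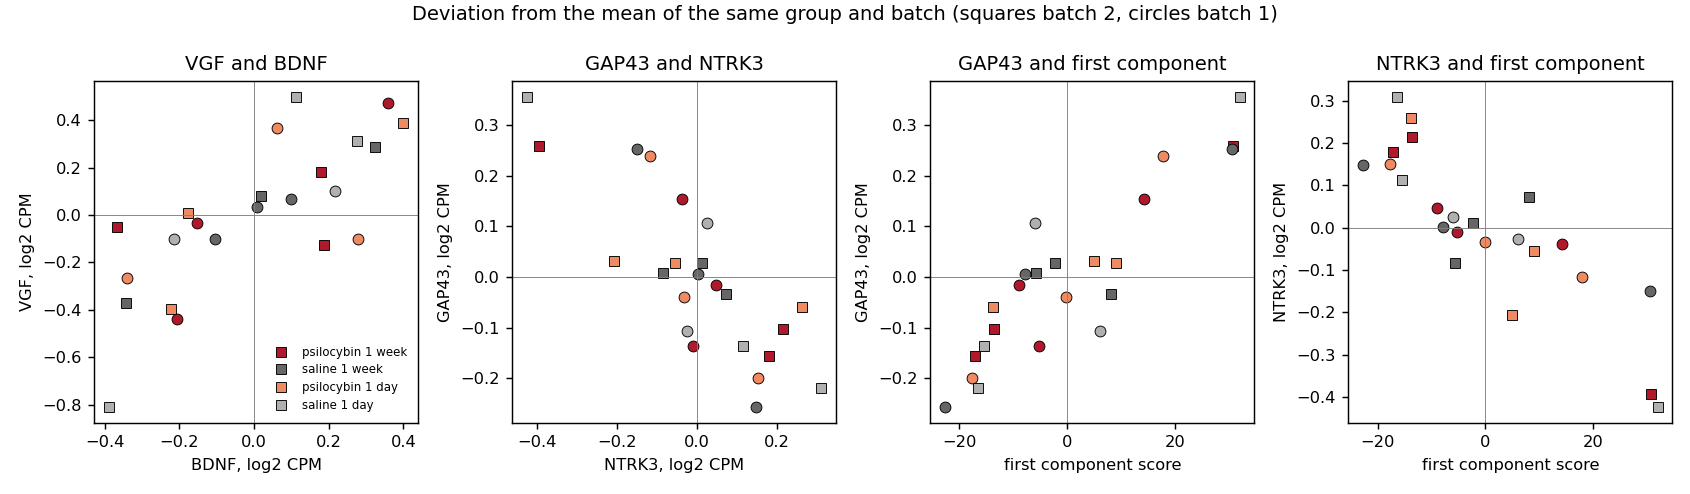
Deviation of each animal from the mean of its group and batch in log2 CPM, for VGF against BDNF (r = 0.762), GAP43 against NTRK3 (r = -0.823), and GAP43 (r = 0.896) and NTRK3 (r = -0.859) against the score on the first principal component of all tested genes. Points are the 23 animals, squares batch 2 and circles batch 1, and 3 animals lie far to the right in the panels of the first component.

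The same deviations were set against 11 scores, which were the first component, the mean level of immediate early genes and the mean levels of 9 lists of cell type or region markers, giving 88 relations. VGF followed the immediate early score, which averages 21 activity-induced genes such as FOS and ARC, with r = 0.615 and rho = 0.644 (permutation p = 0.00057 and 0.00233, adjusted p = 0.0241 and 0.041). It was 0.698 in batch 2 and 0.485 in batch 1, and 0.687 without the 2 animals farthest out in the score. Without the 3 libraries it was 0.678, with an adjusted p of 0.128. BDNF, which is itself activity-induced, had r = 0.576 with the same score and did not pass (rho = 0.546, p = 0.0104 and 0.0244, adjusted p = 0.0762 and 0.137), with 0.853 in batch 2 and 0.155 in batch 1. With centring by group only it passed (r = 0.574, adjusted p = 0.0263). The immediate early genes summed to 1082 to 1460 CPM in psilocybin 1 week, 761 to 2073 CPM in saline 1 week, 1111 to 1669 CPM in psilocybin 1 day and 1092 to 1442 CPM in saline 1 day animals. None of the 21 was called for psilocybin against saline at either time by edgeR or DESeq2, and 0 had an unadjusted p under 0.05 by edgeR.

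The first component, whose score is built from all tested genes and so includes the 8 described here, followed GAP43 with r = 0.896 and rho = 0.844 (permutation p = 0.00082 and 0.00096, adjusted p = 0.0241 and 0.0396). NTRK3 went against it with r = -0.859 and rho = -0.863 (p = 0.00075 and 0.00067, adjusted p = 0.0241 and 0.0396). NRN1 had r = 0.682 and rho = 0.613 (p = 0.00346 and 0.0068), where the adjusted p was 0.0435 for r and 0.0665 for rho. These 3 values were 0.940, -0.913 and 0.765 in batch 2, and 0.848, -0.939 and 0.603 in batch 1. Without the 2 animals farthest out they were 0.804, -0.690 and 0.558, and without the 3 libraries they were 0.697, -0.639 and 0.473, where none passed. The other 5 genes had r between -0.18 and 0.04 with this component. The share of all tested genes that follow the component as closely is not given here. These values therefore do not set the 3 genes apart from other genes.

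Marker lists of other cell types moved with the same 3 genes. NRN1 went against the score of 8 oligodendrocyte precursor markers with r = -0.713 and rho = -0.704 (permutation p = 0.002 and 0.0033, adjusted p = 0.0433 and 0.0481), and this was -0.689 without the 2 animals farthest out. Without the 3 libraries it was -0.798 and did not pass (adjusted p = 0.129). GAP43 went against 8 endothelial and mural markers with r = -0.756 and rho = -0.742 (p = 0.00295 and 0.00143, adjusted p = 0.0433 and 0.0396), but this was -0.466 without the 2 animals farthest out and -0.264 without the 3 libraries, so it rests on those libraries. NTRK3 followed 8 meningeal and fibroblast markers with r = 0.782 and rho = 0.789 (p = 0.00273 and 0.0018, adjusted p = 0.0433 and 0.0396), which was 0.750 without the 2 animals farthest out. It did not pass without the 3 libraries (r = 0.557, adjusted p = 0.231) or with centring by group only (r = 0.479, adjusted p = 0.155). Within batch 2 the 3 values were -0.784, -0.836 and 0.873, and within batch 1 they were -0.711, -0.806 and 0.731.

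The markers behind these scores were all detected. Oligodendrocyte precursor markers summed to 578 to 654 CPM in psilocybin 1 week, 552 to 684 CPM in saline 1 week, 552 to 700 CPM in psilocybin 1 day and 540 to 644 CPM in saline 1 day animals. Endothelial and mural markers, 8 of 10 of which were tested, summed to 274 to 327 CPM in psilocybin 1 week, 244 to 387 CPM in saline 1 week, 273 to 336 CPM in psilocybin 1 day and 230 to 317 CPM in saline 1 day animals. Meningeal and fibroblast markers summed to 91.2 to 293 CPM in psilocybin 1 week, 108 to 309 CPM in saline 1 week, 76.6 to 244 CPM in psilocybin 1 day and 115 to 331 CPM in saline 1 day animals. The part of these cell types in the levels of NRN1, GAP43 and NTRK3 was not tested.

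Relations that did not pass include several of some size. BDNF had r = -0.571 with 8 oligodendrocyte markers (rho = -0.641, permutation p = 0.00503 and 0.00383, adjusted p = 0.0511 and 0.0481), and r = 0.713 with 5 striatal markers (rho = 0.675, p = 0.00523 and 0.00671, adjusted p = 0.0511 and 0.0665). These 2 values of r were -0.709 and 0.909 in batch 2, and -0.268 and 0.322 in batch 1. They were -0.612 and 0.663 without the 3 libraries, and -0.282 and 0.425 with centring by group only. NTRK3 had r = 0.784 with endothelial and mural markers (rho = 0.687, permutation p = 0.0098 and 0.011, adjusted p = 0.0762 and 0.0878). This was 0.177 without the 3 libraries, and it passed with centring by group only (r = 0.852, adjusted p = 0.00088). NTRK2 reached at most 0.425 in size among the 11 scores, and NTF3, whose counts were low, passed with none.

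**Figure D5:**
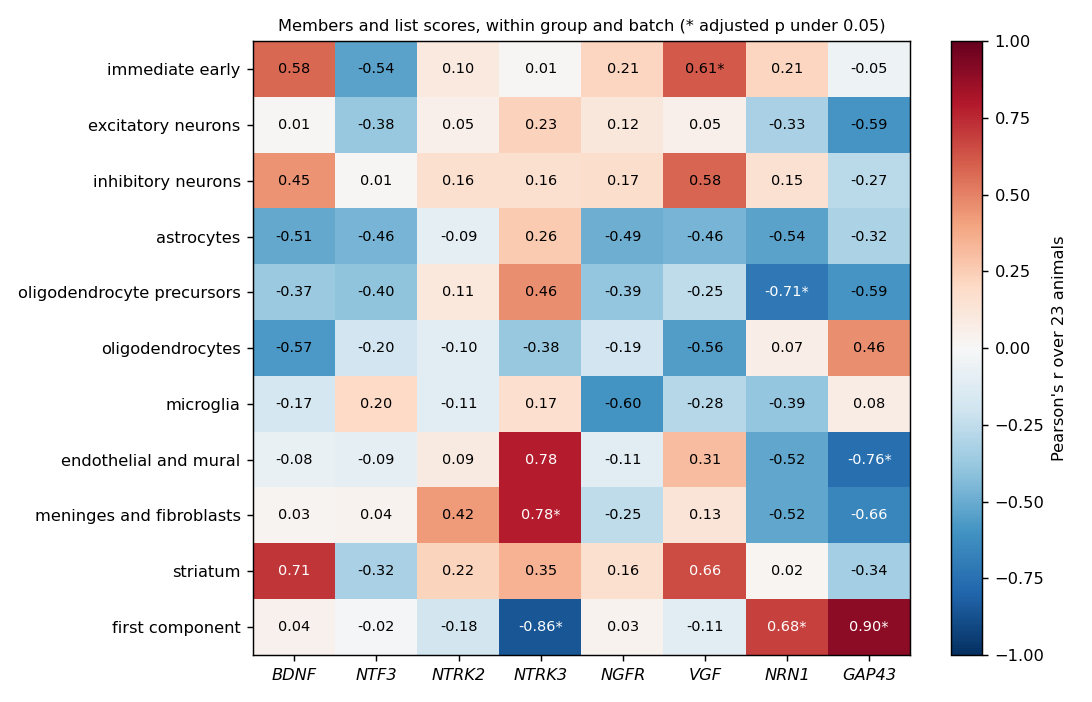
Pearson's r between each gene (columns) and each score (rows) over 23 animals after subtraction of group and batch means, from -1 (blue) to 1 (red). Asterisks mark the 7 of 88 relations with an adjusted p under 0.05, of which 3 involve the first component and 3 involve marker lists.

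The genes most like each member in the same deviations, among 12494 other tested genes with a symbol, were found by Pearson's r over the 23 animals and are given as a description. BDNF was closest to INHBA, which encodes a subunit of activin (r = 0.806), DNAJB5 (0.766) and CBLN4 (0.763). VGF was closest to EPS15L1 (0.923), CAMK1G (0.916) and PTPRN (0.905), a protein of secretory granules. NRN1 was closest to SNCB, which encodes beta-synuclein (0.882), TOR1A (0.877) and YPEL3 (0.867), and GAP43 to MIF (0.962), DDA1 (0.962) and COPE (0.958). NTRK3 was closest to CDH1 (0.938), the gene of E-cadherin, FN1 (0.920), the gene of fibronectin, and ADAMTSL3 (0.912). NTRK2 had no gene above MOB3C (0.740), NTF3 none above PRC1 (0.793) and NGFR none above ATXN7L1 (0.766).

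The wider pathway was followed in 5 lists with 123 genes, of which 116 were tested. They hold other neurotrophin ligands and receptors, genes of precursor processing and release, Trk signalling genes, other secreted plasticity genes, and growth cone and membrane genes. By edgeR 0 of 116 were called for psilocybin against saline at 1 week and 0 at 1 day, with 52 and 60 positive estimates and medians of -0.01 and 0.0026. An unadjusted p under 0.05 was reached by 0 genes at 1 week and 4 at 1 day, which is 3.45% of the 116 at 1 day, against 1.99% of all tested genes at 1 week and 2.83% at 1 day. Of all tested genes, 48.76% had positive estimates at 1 week and 51.41% at 1 day. Trk signalling genes had 23 of 40 positive estimates at 1 week and 24 of 40 at 1 day. Other ligands and receptors had 7 of 13 positive at 1 week and 11 of 13 at 1 day, with medians of 0.04 and 0.08. Growth cone and membrane genes had 5 of 19 positive at 1 week and 7 of 19 at 1 day, other secreted plasticity genes 10 of 29 and 12 of 29, and processing genes 7 of 15 and 6 of 15.

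None of the pathway genes with the smallest p values passed at either time. At 1 day IGF1, a growth factor with few reads here, averaged 0.477 ± 0.149 CPM in psilocybin animals (SD, n = 6) and 0.953 ± 0.189 CPM in saline animals (SD, n = 5), a log2 fold change of -0.94 (-1.55 to -0.33, unadjusted p = 0.00406, adjusted p = 1 by edgeR). CRTC1, a coactivator of CREB, had 0.24 (0.03 to 0.44). PLAU, the urokinase that activates plasmin, had -0.46 (-0.88 to -0.04), and TAC1, the substance P precursor, had -0.45 (-0.88 to -0.01). At 1 week the first was CBL, a ubiquitin ligase of receptor kinases, at 20.6 ± 4.17 CPM in psilocybin animals and 17.0 ± 3.55 CPM in saline animals (SD, n = 6 each), a log2 fold change of 0.29 (-0.0026 to 0.57, unadjusted p = 0.052). In IGF1 the difference between the effects, 1 week minus 1 day, was 0.94 (0.12 to 1.77, unadjusted p = 0.0267), and this was the only pathway gene under 0.05 in that comparison.

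Batch moved the pathway genes more than treatment or time. Of the 116, 33 were called higher and 13 lower in batch 2 than in batch 1, beside the 32.9% of all tested genes that were called. Over all 15049 tested genes, 2428 were called higher and 2527 lower in batch 2. FGF2, a fibroblast growth factor, was higher in batch 2 by a log2 fold change of 0.97 (adjusted p = 7.77e-05 by edgeR), the synaptic protein gene C1QL3 by 0.64 and SLITRK5, which encodes a partner of TrkB, by 0.50. Among the genes lower in batch 2, HAP1, which takes part in the transport of BDNF precursor, had -0.54 and NRGN, a calmodulin-binding postsynaptic protein, had -0.36. Trk signalling genes were called higher 15 times and lower 2 times among 40.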

How the data were processed

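Poly-A selected RNA libraries were sequenced, per the labels' protocols. The submitters' processing notes name fastp 0.20.0, STAR 2.6c, featureCounts 1.5.1 and the pig build susScr11. The authors deposited expected counts per gene. Per the file headers, these came from pairs with both ends mapped and primary alignments, without strand, with reads on several genes shared in fractions. Of the deposited values, 72.2% were whole at a tolerance of 0, and rounding before the count models moved a library total by at most 0.00127%. Among members whose span overlaps no other gene, fractional values made up 73.91% for VGF and 34.78% for BDNF but 0% for NGFR. The source of the fractions in these genes was not tested.

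Genes were kept with filterByExpr of edgeR 4.0.16 (minimum count 10, minimum total 15; 15049 genes, 12495 with a symbol from the reference name tables) in R 4.3.3. Libraries were scaled by TMM, and 1 model with 4 groups and batch was fitted to all genes with the robust quasi-likelihood F test, two-sided, with Benjamini-Hochberg adjustment over all genes and a threshold of 0.05. CPM are deposited counts over TMM-scaled totals, and FPKM divide these by exonic kilobases. Permutation of treatment within batches was exact, with 200 arrangements at 1 day and 400 at 1 week, two-sided. Correlations used log2 CPM (prior count 2) with 100000 permutations within group and batch, adjusted within each family. Alternatives were RLE factors, no filter, DESeq2 1.42.0, no batch term, each batch alone, single animals left out, 3 libraries left out, and centring by group only. Nothing in the labels pairs animals across groups, and each library is taken as 1 animal by its label.

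The members, the gene lists and the 3 libraries were chosen with earlier results of these data known. All 8 members were named. Of the pathway genes with the smallest p, and of the 3 genes most like each member, only some were named. Animals are numbered within a group in the order of deposit. Intervals for the sparse NTF3 and NGFR come from the model, with no separate counting interval. No genome or sequence table was used here.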

Additional observations from a re-analysis of the deposited data

Results flagged for a closer look

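Each of the 8 genes was examined in each of the 4 groups for a single animal far from the rest (Dixon's test at 95%), and 3 of 32 sets of values had one, where chance gives about 1 in 20. VGF had 428.2 CPM in psilocybin 1 week animal 1, above the other 5 animals at 228 to 301 CPM. VGF had 140 CPM in saline 1 day animal 5, below the other 4 animals at 297 to 346 CPM, and this library also stood apart on the first component. NTRK2 had 549 CPM in saline 1 week animal 3, below the other 5 animals at 663 to 720 CPM. Leaving out psilocybin 1 week animal 1 gave VGF a log2 fold change of -0.16 at 1 week, leaving out saline 1 day animal 5 gave -0.11 at 1 day, and neither passed.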

How the results depend on the processing

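The count of members called for psilocybin against saline, for the difference of effects and for the times was 0 under RLE factors, no filter, DESeq2, no batch term, each batch alone, the removal of the 3 libraries and the removal of each animal. Under batch it was 1 throughout except when single animals were left out, where it was 0 to 1. NTRK3 missed the threshold in 6 of those removals, with an adjusted p of up to 0.0617. Values below are log2 fold changes that changed sign, of which none had passed. The cause of these changes was not tested. Under batch 2 against batch 1, NTRK2 had 0.012 and VGF 0.0065 with RLE factors, 0.025 and 0.020 without a filter, and 0.012 and 0.0062 with DESeq2. In batch 2 alone, psilocybin against saline gave BDNF -0.061, NTRK2 -0.045, NTRK3 -0.10, NRN1 0.0039 and GAP43 0.014 at 1 week and NTF3 -0.094 at 1 day, the difference gave BDNF -0.22 and GAP43 0.19, and time within psilocybin gave NTRK2 -0.041 and NTF3 0.33. In batch 1 alone, psilocybin against saline gave VGF 0.38 at 1 week and BDNF -0.20, NGFR 0.57 and VGF -0.13 at 1 day, the difference gave NTRK3 0.022, NGFR -0.030 and VGF 0.51, time within psilocybin gave NTRK3 0.032 and VGF 0.13, and time within saline gave BDNF -0.35 and VGF -0.38. Without the 3 libraries, psilocybin against saline gave BDNF -0.0015 and VGF 0.051 at 1 week and BDNF -0.11, NGFR 0.086, VGF -0.11 and GAP43 0.0050 at 1 day. There the difference gave NTRK2 0.041 and VGF 0.16, time within psilocybin gave NTRK3 0.070 and VGF 0.014, time within saline gave BDNF -0.075 and VGF -0.14, and batch gave NTRK2 0.055 and VGF 0.10.

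With single animals left out, psilocybin against saline at 1 week ran from -0.035 to 0.15 for BDNF, -0.054 to 0.032 for NRN1 and -0.16 to 0.11 for VGF. At 1 day it ran from -0.11 to 0.16 for BDNF, -0.17 to 0.0049 for GAP43, -0.13 to 0.14 for NGFR and -0.11 to 0.16 for VGF. The difference ran from -0.11 to 0.15 for BDNF, -0.13 to 0.038 for GAP43, -0.15 to 0.051 for NTRK2 and -0.23 to 0.11 for VGF. Without a change of sign, psilocybin against saline ran from 0.072 to 0.55 for NTF3, 0.014 to 0.21 for NTRK2 and 0.11 to 0.29 for NTRK3 at 1 day, and from -0.61 to -0.27 for NTF3 and -0.21 to -0.054 for GAP43 at 1 week. Time within psilocybin ran from -0.015 to 0.17 for BDNF, -0.058 to 0.035 for NRN1, -0.024 to 0.080 for NTRK2, -0.060 to 0.060 for NTRK3 and -0.22 to 0.047 for VGF. Time within saline ran from -0.080 to 0.18 for BDNF, -0.016 to 0.17 for NTRK2 and -0.16 to 0.10 for VGF. Batch ran from -0.11 to 0.014 for BDNF, -0.15 to 0.087 for NTF3, -0.047 to 0.039 for NTRK2 and -0.063 to 0.091 for VGF.

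Relations that passed numbered 4 of 28 pairs and 7 of 88 with scores. Without the 3 libraries they numbered 0 and 0 over 20 animals, with 6 and 25 at an unadjusted p under 0.05. With centring by group only they numbered 4, the same 4 pairs, and 12, of which 6 were shared. Under that centring NTRK3 with meningeal and fibroblast markers no longer passed. BDNF with immediate early genes, NTRK3 with endothelial and mural markers and with oligodendrocyte precursor markers, GAP43 with oligodendrocyte precursor markers, and NRN1 with endothelial and mural markers and with astrocyte markers passed. No animal number is shared between groups and the labels do not say that neighbouring numbers mark pairs, so no paired fit was run. Depth limits NTF3 and NGFR most.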
